A study of Schizosaccharomyces pombe with 8 samples.

Results

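The genes described here are 10 of the 5137 coding features counted in fission yeast (Schizosaccharomyces pombe) by RNA sequencing. They were chosen by identifier as targets and regulators of the Sty1-Atf1 stress response: atf1, pcr1, pyp2, ctt1, gpx1, gpd1, tps1, ntp1, hsp9 and cta3. The 8 libraries fall into 4 groups of 2: a wild-type strain (wt) and strains whose genotypes are labelled nht1-delta, iec1-delta and iec5-delta, each lacking by its label 1 subunit of INO80, a complex that slides and remodels nucleosomes. No stress was applied. All cells grew to mid-log phase in the rich medium YEA, and ribosomal RNA was removed before directional libraries were made. Each group carries 1 strain number in the labels (SPJ1577 for wt, CS2354 for nht1, CS2379 for iec1, CS2370 for iec5), and nothing says that the 2 libraries of a strain came from separate cultures, so the p-values measure only the spread between these libraries, which may be technical.

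Sty1 is the fission yeast stress-activated MAP kinase. Osmotic, oxidative, heat and nutrient stress activate it through the kinase Wis1, and active Sty1 enters the nucleus and acts on Atf1, a bZIP transcription factor that pairs with Pcr1 and binds sites related to the cyclic AMP response element. The targets include enzymes that destroy peroxides, enzymes that make and break down trehalose and glycerol, and the phosphatase Pyp2, which turns Sty1 off again.

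The sites that Atf1 and Pcr1 bind hold the letters TGACGT, so the 500 bases upstream of each annotated gene start were searched for them on both strands, in RefSeq's annotation and genome of build ASM294v3. The 7 letters ATGACGT, which contain the shorter motif, were found upstream of 4 of the 10 genes and upstream of 1.92% of all 5112 coding genes searched. TGACGT alone was found upstream of the same 4 genes and of 8.14% of all. The palindrome TGACGTCA, which overlaps both, was found upstream of atf1 alone among the 10 and of 0.372% of all. The 4 upstream stretches are shown because they group the 10 genes by sequence, each read 5′ to 3′ on the strand of its gene with ATGACGT or its reverse complement ACGTCAT in capitals. They lie at chromosome II, 1546134 to 1546200 (atf1, plus strand), chromosome III, 58857 to 58923 (ctt1, minus strand), chromosome II, 4035462 to 4035528 (gpd1, plus strand) and chromosome II, 206482 to 206548 (ntp1, plus strand).
atf1: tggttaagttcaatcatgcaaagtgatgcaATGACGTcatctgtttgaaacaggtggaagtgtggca
ctt1: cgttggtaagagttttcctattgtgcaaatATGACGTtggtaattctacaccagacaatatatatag
gpd1: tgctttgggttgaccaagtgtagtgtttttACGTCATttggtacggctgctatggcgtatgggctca
ntp1: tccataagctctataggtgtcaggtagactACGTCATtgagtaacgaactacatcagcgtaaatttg
These capitals begin 53 (atf1), 60 (ctt1), 74 (gpd1) and 69 (ntp1) bases before the gene start. For atf1 ACGTCAT also begins 50 bases before the start, overlapping the capitals, and is not marked. For gpd1 the shorter TGACGT was also found 123 bases before the start, outside the stretch shown. Neither ATGACGT nor TGACGT was in the windows of the other 6 genes.

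Total coding counts ran from 2208165 to 3426063 per library. All 10 genes were among the 4652 coding genes with enough counts to be tested. Levels are counts scaled by TMM library size to CPM, and differences were tested with the edgeR quasi-likelihood F test in 1 fit of all 8 libraries, with a call at a Benjamini-Hochberg adjusted p under 0.05 over all 4652 genes. As a check of the labels, iec5 had 2.376 ± 1.298 CPM in its own libraries and 12.6 ± 0.325 in wt, and nht1 had 29.9 ± 7.12 against 45.1 ± 4.98 (SD, n = 2 each), a difference that was not called (edgeR adjusted p = 0.212). The iec1 gene stood at 91.9 ± 4.93 CPM under the iec1 label and at 38.4 ± 2.89 in wt (SD, n = 2 each), which goes against that label. Directions for iec1 and nht1 are therefore those of the libraries so labelled.

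The libraries are directional, but by their counts at least 1 of the 2 deposited tables did not count reads by the annotated strand. For 203 noncoding features that lie wholly inside 1 coding feature on its opposite strand, the count per base was a median of 1.14 times that of the coding feature (quartiles 0.980 and 1.35), over coding features with at least 200 counts. For 32 such features on the same strand the median was 0.396 (quartiles 0.0884 and 0.896), and why it was lower was not tested. Which table this holds for, or both, is not stated. Reads of a gene and of RNA from its opposite strand therefore cannot be told apart with confidence in these counts. RefSeq's newer annotation places lncRNA genes opposite 8 of the 10, covering 84.0% of pyp2, 84.7% of gpd1, 85.6% of cta3, 58.2% of ntp1, 53.1% of hsp9, 32.2% of tps1, 17.7% of atf1 and 16.2% of pcr1, and none of ctt1 or gpx1.

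Without stress the 10 genes covered a wide range of levels. Per kilobase of counted length, wt stood at 1.87 ± 0.0594 CPM per kb for pyp2, 4.93 ± 1.49 for pcr1, 7.12 ± 1.74 for cta3 and 8.17 ± 2.36 for atf1 (SD, n = 2 each). The median of all tested genes in wt was 37.9 CPM per kb, so the pathway's factors, its phosphatase and the pump gene lay in the lowest 11.7% of genes by level. The enzyme genes were higher, at 40.6 ± 6.54 for ctt1, 49.2 ± 2.94 for ntp1, 135 ± 19.2 for gpx1, 150 ± 4.33 for tps1 and 240 ± 7.33 CPM per kb for gpd1 (SD, n = 2 each). The small heat shock protein gene hsp9 was at 203 ± 113, a spread that reaches its neighbours tps1 and gpd1 in this order. The SDs of pcr1, cta3 and atf1 reached each other too, as did those of ctt1 and ntp1 and of gpx1 and tps1, while pyp2 lay below pcr1 beyond them.

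**Figure D1:**
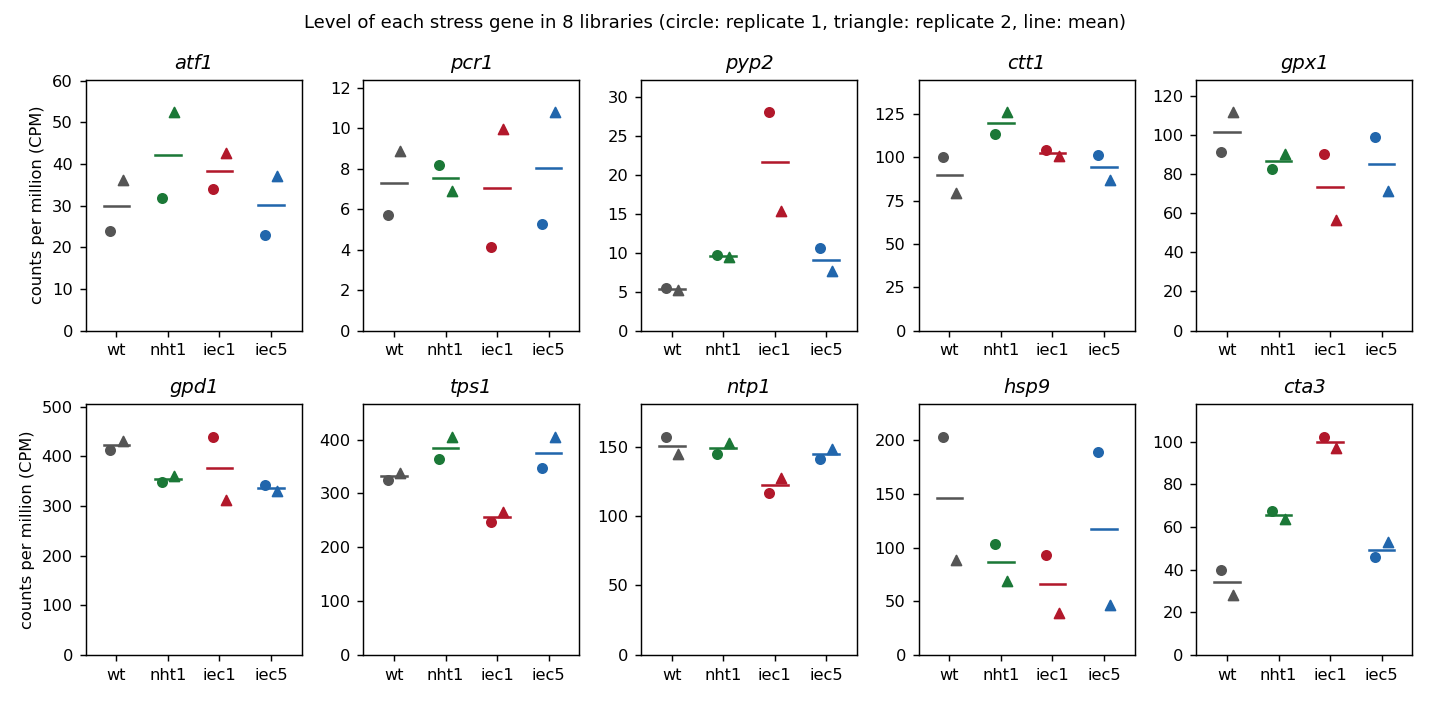
Level of each gene in CPM (y axis, from 0) in the libraries of wt, nht1, iec1 and iec5, with a circle for replicate 1, a triangle for replicate 2 and a line for the mean. The cta3 points rise in the order wt, iec5, nht1, iec1, and hsp9 circles lie above hsp9 triangles in every group.

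Of the 10 genes, cta3 rose in the libraries labelled nht1, and cta3 and pyp2 rose in those labelled iec1. No gene of the 10 was called lower than wt in this fit. With a replicate block hsp9 was called lower in nht1 and iec1, and tps1 in iec1. In nht1 1 of 10 rose, where 3.14% of all tested genes rose and 0.989% fell (4.13% either way). In iec1 2 of 10 rose, where 8.04% of all rose and 2.21% fell (10.3% either way). In iec5 edgeR called 0 of 10, where 0.408% of all were called either way, 2 of the 10 had an unadjusted p under 0.05 and DESeq2 also called 0. The median log2 fold change of the 10 was 0.13 in nht1, -0.07 in iec1 and 0.04 in iec5, beside medians of 0.02, 0.02 and 0.01 over all tested genes. Library values of 4 genes in nht1 lay above both wt libraries and those of 2 below, where 26.8% and 21.0% of all genes did so. In iec1 these counts were 3 above and 3 below, where 27.8% and 23.3% of all did so, and in iec5 3 above and 1 below, where 18.1% and 14.0% did so. Between the mutants, 2 genes were higher and 3 lower without overlap in iec1 against nht1 (18.3% and 14.8% of all), 0 and 3 in iec5 against nht1 (17.7% and 22.1%) and 2 and 2 in iec1 against iec5 (24.5% and 21.7%). Called among the 10 were 1 higher and 1 lower in iec1 against iec5, where 4.71% of all were called (4.02% higher, 0.688% lower). In iec1 against nht1 edgeR called 0 of 10, where 0.15% of all were called (0.129% higher, 0.0215% lower), with 3 at an unadjusted p under 0.05 and 1 called by DESeq2. In iec5 against nht1 edgeR called 0 and DESeq2 0, where 0.537% of all were called (0.107% higher, 0.43% lower), with 2 at an unadjusted p under 0.05. In a test for any difference among the 4 groups, cta3, pyp2 and tps1 were called, 3 of 10 where 7.33% of all were (edgeR adjusted p = 0.000232, 0.0146 and 0.0315). The 10 genes were chosen with earlier results of these data known, so their counts are a description.

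**Figure D2:**
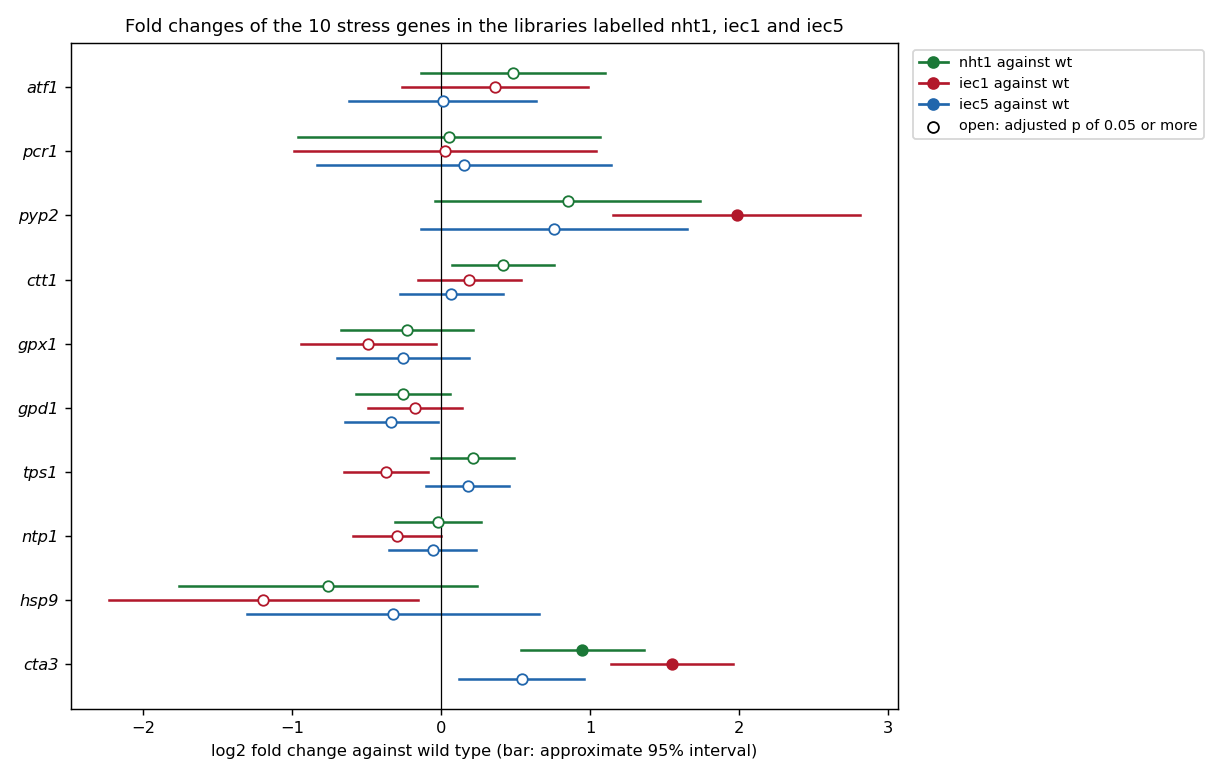
Log2 fold change against wt (x axis) of each gene in the libraries labelled nht1, iec1 and iec5, with approximate 95% intervals as bars and filled points for an adjusted p under 0.05. Filled points are cta3 in nht1 (0.95) and iec1 (1.55) and pyp2 in iec1 (1.98).

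The transcription factor genes did not pass the test in any comparison. In bulk RNA, fewer cells that express a gene and less RNA per cell cannot be told apart. For atf1 (SPBC29B5.01, chromosome II, 1546194 to 1549862 on the files' build ASM294v2, plus strand) the libraries had 23.9 and 36.1 CPM in wt, 31.8 and 52.4 in nht1, 33.9 and 42.6 in iec1, and 23.1 and 37.0 in iec5. All 4 groups overlapped, and in each group the library numbered 2 was the higher, by 1.25-fold to 1.65-fold. Against wt the log2 differences of atf1 were 0.48 (95% interval -0.14 to 1.10) in nht1, 0.36 (-0.26 to 0.99) in iec1 and 0.01 (-0.62 to 0.64) in iec5. Its partner pcr1 (SPAC21E11.03c) was counted 9 to 37 times per library, or 4.13 to 10.8 CPM, and every group overlapped every other. The intervals of pcr1 against wt reached from -0.99 to 1.14 on the log2 scale over the 3 comparisons, so changes of pcr1 within those bounds remained compatible with these counts. Of 19 tested immediate neighbours of the 10 genes 1 was called in iec1, where 10.3% of all tested genes were called. It was isp4, for an oligopeptide transporter, beside atf1, at 1.12 (SE 0.28, edgeR adjusted p = 0.0141). Its call ended without wt replicate 2 or iec1 replicate 1 (edgeR adjusted p = 0.144 to 0.196). In nht1 and iec5 edgeR and DESeq2 each called 0 of these 19, with 1 and 0 at an unadjusted p under 0.05.

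The phosphatase gene pyp2 (SPAC19D5.01, chromosome I, 5202366 to 5205202, plus strand) encodes a tyrosine phosphatase that dephosphorylates Sty1 and is itself induced by the pathway. Its counts were 18 and 17 in wt, 31 and 26 in nht1, 61 and 52 in iec1, and 32 and 26 in iec5. Scaled, these were 5.44 and 5.20 CPM in wt, 9.75 and 9.46 in nht1, 28.0 and 15.3 in iec1, and 10.5 and 7.58 in iec5. Every mutant library lay above both wt libraries, and both iec1 libraries lay above all others. The rise in iec1 was 3.95-fold (log2 fold change 1.98, SE 0.39, edgeR adjusted p = 0.00274), and the call held in each of the 8 fits that left out 1 library. The values in nht1 (0.85, SE 0.42) and iec5 (0.76, SE 0.42) were not called, with edgeR adjusted p of 0.327 and 0.993. The difference between iec1 and nht1 was 1.13 (95% interval 0.36 to 1.91) and that between iec1 and iec5 1.22 (0.45 to 1.999), and neither was called (edgeR adjusted p = 0.421 and 0.0700). Without iec1 replicate 2 the latter was 1.59 and was called (edgeR adjusted p = 0.0286). The test across all 4 groups lost its call of pyp2 without either wt library or without iec1 replicate 1 (edgeR adjusted p = 0.0639 to 0.203). The feature shares 48 bases with emc10 on the opposite strand, which was at -0.44 (SE 0.30, not called) in iec1.

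The peroxide enzymes are ctt1, the catalase gene (SPCC757.07c, chromosome III, 56654 to 58865, minus strand), and gpx1, for glutathione peroxidase (SPBC32F12.03c). Libraries had 99.96 and 79.5 CPM of ctt1 in wt, 114 and 126 in nht1, 104 and 101 in iec1, and 102 and 86.9 in iec5. Both nht1 libraries lay above all others, and those of iec5 overlapped wt. The ctt1 difference in nht1 was 0.41 (95% interval 0.07 to 0.76, edgeR adjusted p = 0.192), and in iec1 and iec5 it was 0.19 and 0.07. For gpx1 the values were 91.2 and 112 in wt, 82.7 and 90.6 in nht1, 90.3 and 56.4 in iec1, and 98.8 and 71.2 CPM in iec5. Both nht1 and both iec1 libraries lay below those of wt, iec1 replicate 2 the farthest, and iec5 overlapped wt. None of the gpx1 differences was called, at -0.23, -0.49 (95% interval -0.94 to -0.03, edgeR adjusted p = 0.171) and -0.26 in nht1, iec1 and iec5. Without iec1 replicate 1 the value in iec1 was -0.85 and was called (edgeR adjusted p = 0.0287).

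Of the osmolyte and trehalose enzymes, gpd1 and tps1 had the highest CPM of the 10 genes. The glycerol-3-phosphate dehydrogenase gene gpd1 (SPBC215.05), which makes the osmolyte glycerol, had 413 and 432 CPM in wt, 349 and 360 in nht1, 439 and 312 in iec1, and 342 and 329 in iec5. Both nht1 and both iec5 libraries lay below wt, and the iec1 libraries spanned it. Its differences were -0.25 (95% interval -0.57 to 0.06), -0.17 and -0.33 (-0.65 to -0.02) in nht1, iec1 and iec5, none of them called (edgeR adjusted p = 0.413, 0.520 and 0.965).

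The gene tps1 (SPAC328.03, chromosome I, 3479098 to 3481305, plus strand) encodes trehalose-6-phosphate synthase. It had 325 and 339 CPM in wt, 364 and 405 in nht1, 248 and 266 in iec1, and 347 and 405 in iec5. Libraries of iec1 lay below all others, while those of nht1 and iec5 lay above wt and overlapped each other. Against iec5 the iec1 level was lower by a called difference of -0.55 (SE 0.13, 1.46-fold, edgeR adjusted p = 0.0235). Of the 10 genes, tps1 alone was called lower in that comparison, where 0.688% of all tested genes were called lower. Its call ended without iec1 replicate 1 (-0.50, adjusted p = 0.146), without iec5 replicate 2 (-0.43, adjusted p = 0.282) and in the fit of iec1 and iec5 alone (-0.55, edgeR adjusted p = 0.0505). Against nht1 the difference was -0.58 (95% interval -0.87 to -0.30, edgeR adjusted p = 0.110), which DESeq2 called (adjusted p = 0.0310). Against wt the values were 0.21 in nht1, -0.37 (95% interval -0.65 to -0.09, edgeR adjusted p = 0.0905) in iec1 and 0.18 in iec5. The call of tps1 across all 4 groups ended in 7 of the 8 fits that left out 1 library, all but that without iec5 replicate 1 (edgeR adjusted p = 0.0541 to 0.200).

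Neutral trehalase, the enzyme that breaks trehalose down, is encoded by ntp1 (SPBC660.07). Its values were 157 and 144.3 CPM in wt, 144.4 and 153 in nht1, 117 and 128 in iec1, and 141 and 148 in iec5. The iec1 libraries again lay below all others, and the remaining groups overlapped. None of the ntp1 differences was called, at -0.02 (95% interval -0.31 to 0.27) in nht1, -0.30 (-0.59 to -0.003) in iec1 and -0.06 (-0.35 to 0.23) in iec5.

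The gene hsp9 (SPAP8A3.04c, chromosome I, 5319957 to 5320676, minus strand), for a small heat shock protein, differed widely between libraries of 1 group. It had 203 and 88.7 CPM in wt, 104 and 68.8 in nht1, 92.6 and 38.8 in iec1, and 189 and 46.4 in iec5. The library numbered 1 was the higher in all 4 groups, by 1.505-fold to 4.08-fold, and all groups overlapped. Of 4652 tested genes, 929 had 1 replicate number higher in all 4 groups, and for 4 genes, hsp9 included, the smallest of the 4 log2 differences was at least as large as for hsp9. What libraries of 1 number share was not stated in the labels, so the main fit had no replicate block. Within each number every mutant library lay below that of wt. With such a block hsp9 was called lower than wt in iec1 (-1.16, edgeR adjusted p = 0.000359) and nht1 (-0.68, edgeR adjusted p = 0.0426). In the main fit the hsp9 values against wt were -0.76 (95% interval -1.76 to 0.24) in nht1, -1.19 (-2.23 to -0.16) in iec1 and -0.32 (-1.299 to 0.66) in iec5, and none was called (edgeR adjusted p = 0.445, 0.141 and 0.993). That of iec1 was called in the fit of iec1 and wt alone (adjusted p = 0.0403), without iec1 replicate 1 (-1.91, adjusted p = 0.0371), and without iec5 replicate 1 or 2 (edgeR adjusted p = 0.0247 and 0.0245).

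The smallest adjusted p among the 10 was that of cta3 (SPBC839.06, chromosome II, 607214 to 611989, plus strand), annotated as a P-type calcium transporting ATPase and known as a salt-induced Atf1 target that the corepressors Tup11 and Tup12 hold down. It had 39.9 and 28.1 CPM in wt, 67.6 and 63.7 in nht1, 102 and 97.2 in iec1, and 45.8 and 53.1 in iec5. The groups did not overlap and stood in the order wt, iec5, nht1, iec1. The rise in iec1 was 2.93-fold (log2 fold change 1.55, SE 0.19, edgeR adjusted p = 3.93e-05) and was called in all 8 fits that left out 1 library. The rise in nht1 was 1.93-fold (0.95, SE 0.20, edgeR adjusted p = 0.01001). It lost its call without wt replicate 2 (0.72, adjusted p = 0.151), nht1 replicate 1 (0.90, adjusted p = 0.0930) or nht1 replicate 2 (0.99, edgeR adjusted p = 0.0641). In iec5 the value was 0.54 (95% interval 0.12 to 0.96, edgeR adjusted p = 0.734). Between strains, iec1 was higher than iec5 by 1.008 (SE 0.19, edgeR adjusted p = 0.00380), where 4.02% of all tested genes were called higher. The neighbours nht1 and iec1 in that order differed by 0.60 (95% interval 0.21 to 0.99) and iec5 and nht1 by -0.41 (-0.81 to -0.01), and neither difference was called (edgeR adjusted p = 0.380 and 0.546).

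The strand of the cta3 reads could not be read from these tables. The noncoding feature SPNCRNA.1374 (chromosome II, 608000 to 611638) lies on the minus strand within cta3 and covers 3639 bases, or 76.2%, of it. Its counts were 129 and 87 in wt, 207 and 173 in nht1, 211 and 314 in iec1, and 132 and 174 in iec5, and those of cta3 ran from 92 to 331. In every library the noncoding count was 94.6% to 98.9% of the cta3 count. By these totals the counts appear to share most of their reads, but single reads were not compared. SPNCRNA.1374 rose with cta3, by 0.96 (SE 0.20, edgeR adjusted p = 0.00340 over 1096 noncoding features) in nht1 and 1.52 (SE 0.20, adjusted p = 3.46e-06) in iec1. Because of the apparent sharing of reads, the rise of SPNCRNA.1374 is not taken as a second measurement. The call in nht1 ended without wt replicate 2. Whether the added reads are cta3 mRNA or RNA of the opposite strand cannot be told apart here.

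**Figure D3:**
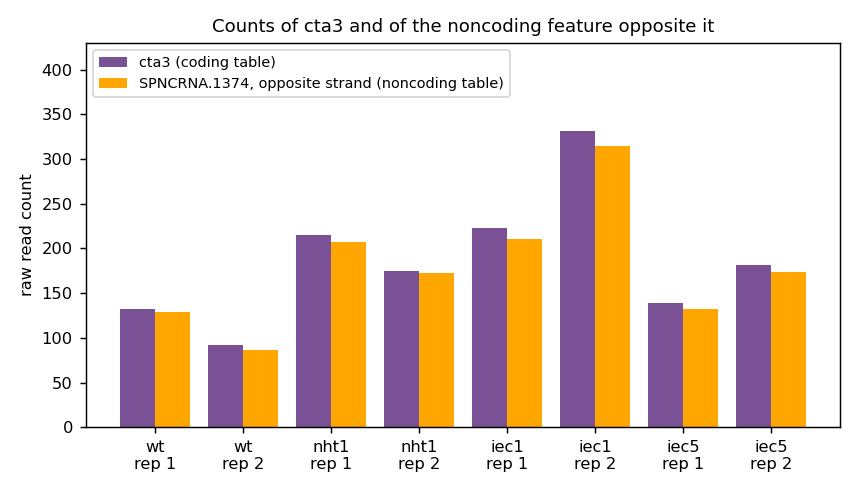
Raw read counts (y axis, from 0) of cta3 in the coding table and of SPNCRNA.1374, on the opposite strand, in the noncoding table, for each of the 8 libraries. The 2 bars of each pair are nearly equal in all 8, with the noncoding count at 94.6% to 98.9% of that of cta3.

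Other noncoding features near the genes gave little. In all, 15 features overlapped 1 of 9 of the genes or lay within 1000 bases of one, and 7 had enough counts to be tested. SPNCRNA.1374 was the 1 called among them in nht1 and in iec1, where 6.57% and 14.7% of tested noncoding features were called. In iec5 edgeR called 0 of these 7, where 1.46% of all were called. SPNCRNA.1071, which shares 64 bases with hsp9 on its own strand, was at -1.09 (SE 0.50) in nht1, -0.82 in iec1 and -0.22 in iec5, none called. In iec5 none of the 7 had an unadjusted p under 0.05 but SPNCRNA.1374.

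The 3 genes with a called difference (cta3, pyp2 and tps1) were not among the 4 with ATGACGT in the upstream window. In the main fit tps1 was called in iec1 against iec5 and across the 4 groups, not against wt. The 4 with the motif, atf1, ctt1, gpd1 and ntp1, stood between -0.33 and 0.48 against wt in all 3 comparisons. Of those without it, pcr1 (0.03 to 0.15), tps1 (-0.37 to 0.21) and gpx1 (-0.49 to -0.23) had values of similar size, while hsp9, pyp2 and cta3 reached further. Whether the motif bears on the differences was not tested. The windows follow RefSeq's gene starts, which differ from the counted starts for all of the 10 but hsp9.

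As measures of likeness, log2 CPM was correlated over the 8 libraries, which share 4 strains and the depth of each library. The genes most like cta3 were arg12, for argininosuccinate synthase (Pearson r = 0.978), and tel1, for the ATM checkpoint kinase (r = 0.978). Those most like pyp2 were nmt1, of thiamine synthesis (r = 0.988), and cdr2, for a protein kinase (r = 0.982). In iec1 the 4 stood at 0.82 (arg12), 0.83 (tel1), 0.65 (nmt1) and 1.21 (cdr2) on the log2 scale against wt.

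The rest of the pathway was followed with 5 lists of 77 symbols in all, each matched in the coding table. Of 19 Sty1 signalling genes (kinases, phosphatases, phosphorelay proteins and partners of Sty1) all were tested and 1 rose and 1 fell, both in iec1, where 8.04% of all tested genes rose and 2.21% fell. They were tdh1, for a glycolytic dehydrogenase that relays peroxide signals, at 0.39 (SE 0.11, edgeR adjusted p = 0.0308), and mpr1, for a phosphotransfer protein, at -0.51 (SE 0.15, edgeR adjusted p = 0.0431). The tdh1 call ended without any 1 library but iec5 replicate 2 (edgeR adjusted p = 0.0508 to 0.231). The mpr1 call held without iec1 replicate 2 or iec5 replicate 1 and ended without each of the other 6 (edgeR adjusted p = 0.0509 to 0.292). Both calls also ended in the fit of iec1 and wt alone (edgeR adjusted p = 0.115 and 0.0800). In nht1 and iec5 edgeR and DESeq2 each called 0 of the 19, with 2 and 0 at an unadjusted p under 0.05. The list median was -0.01, -0.09 and 0.02 in nht1, iec1 and iec5. Of 14 regulators that act with Atf1 (among them pap1, prr1, rst2, tup11 and tup12) 13 were tested, and edgeR and DESeq2 each called 0 in all 3 comparisons, with 0 at an unadjusted p under 0.05. Those with the smallest p were prr1, for a response regulator, at 0.28 (SE 0.13) in nht1, pap1, for the oxidative stress bZIP factor, at 0.28 (SE 0.15) in iec1 and ssn6, for a partner of Tup11 and Tup12, at 0.39 (SE 0.20) in iec5.

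The target lists were chosen with results of these data known, so their counts are a description. Of 20 other stress-induced genes 2 rose in nht1 and 6 in iec1, where 3.14% and 8.04% of all tested genes rose, and none of the 20 fell. The pyridoxal reductase gene plr1 stood at 0.89 (SE 0.19, edgeR adjusted p = 0.0122) and 0.92 (SE 0.19, adjusted p = 0.00406), and the glycolytic gene pgk1 at 0.48 (SE 0.11) and 0.45 (SE 0.11), in nht1 and iec1. In iec1 the others with the largest rises were aes1 (1.74, SE 0.46) and lsd90 (1.33, SE 0.30). The remaining calls there were meu8, for an aldehyde dehydrogenase, at 0.70 (SE 0.20) and isp6, for a vacuolar serine protease, at 0.59 (SE 0.16). In iec5 edgeR and DESeq2 called 0 of the 20, with 4 at an unadjusted p under 0.05. The smallest p there was that of hsp16, at 0.83 (SE 0.22, edgeR adjusted p = 0.208). This gene stood at 0.77 (SE 0.22, edgeR adjusted p = 0.0618) in nht1 and 0.70 (SE 0.22, edgeR adjusted p = 0.0548) in iec1, neither called by edgeR. The list median was 0.33, 0.40 and 0.04 in nht1, iec1 and iec5. The nht1 calls of plr1 and pgk1 ended without either wt or either nht1 library (edgeR adjusted p = 0.0712 to 0.192), and that of plr1 with DESeq2 (adjusted p = 0.101). In iec1 the call of plr1 ended without iec1 replicate 2 (edgeR adjusted p = 0.0688), that of lsd90 without wt replicate 2 or iec1 replicate 1 (0.0723 and 0.104), and those of aes1 and pgk1 without either wt library or iec1 replicate 1 (0.0596 to 0.140). That of aes1 also ended with DESeq2 (adjusted p = 0.130), and that of pgk1 in the fit of iec1 and wt alone (edgeR adjusted p = 0.0646). Those of meu8 and isp6 ended without either wt library, and without iec1 replicate 1 for meu8 and replicate 2 for isp6 (edgeR adjusted p = 0.0839 to 0.252).

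Of 14 genes of the Pap1 oxidative stress response, ctt1 and gpx1 included, 6 rose in nht1, 6 in iec1 and 2 in iec5. Of all tested genes 3.14%, 8.04% and 0.279% rose, and edgeR called none of the 14 lower. Pap1 is a second bZIP factor, which peroxide drives into the nucleus. The spermine transporter gene caf5 rose 4.40-fold in nht1 and 4.99-fold in iec1, obr1, for a quinone reductase, 2.94-fold, 3.83-fold and 2.39-fold in nht1, iec1 and iec5, and gst2, for a glutathione transferase, 2.68-fold, 3.87-fold and 1.997-fold. The peroxiredoxin gene tpx1 rose by 0.84 (SE 0.15) in nht1 and 0.82 (SE 0.15) in iec1, and the ABC transporter gene bfr1 by 0.72 (SE 0.19) and 1.03 (SE 0.19). The sixth was trr1, for thioredoxin reductase, at 0.57 (SE 0.14) and 0.50 (SE 0.14). The list median was 0.55, 0.48 and 0.23, with 11 of the 14 above 0 in each comparison. The lowest of the list in nht1 and iec1 was trx2, at -0.59 (SE 0.17, edgeR adjusted p = 0.058) and -0.53 (SE 0.17, edgeR adjusted p = 0.057). Neither value was called by edgeR, and DESeq2 called 7 of the 14 in nht1 and 7 in iec1. Calls of caf5, obr1 and gst2 in nht1 and iec1, and of tpx1 and bfr1 in iec1, held in all 8 fits that left out 1 library. Those in iec5 ended without wt replicate 1 for obr1 (edgeR adjusted p = 0.0669) and without wt replicate 1 or iec5 replicate 2 for gst2 (0.201 and 0.493), and that of tpx1 in nht1 without nht1 replicate 2 (0.0533). The nht1 calls of bfr1 and trr1 ended without either wt or either nht1 library (edgeR adjusted p = 0.0542 to 0.355). The iec1 call of trr1 ended without either wt library or iec1 replicate 1 (0.105 to 0.218) and in the fit of iec1 and wt alone (0.0541).

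Of 10 further genes in the trehalose and glycerol list edgeR called 0 in nht1 and iec5, DESeq2 likewise 0, with 3 and 0 at an unadjusted p under 0.05. Of all tested genes 4.13% and 0.408% were called there. The list also holds hxk1, hxk2 and zwf1, which are genes of wider glucose metabolism. In iec1 3 rose and 0 fell, where 8.04% of all tested genes rose. They were gut2, for a mitochondrial glycerol-3-phosphate dehydrogenase (0.78, SE 0.18), gpd2, the paralogue of gpd1 (0.66, SE 0.15), and zwf1, for glucose-6-phosphate dehydrogenase (0.52, SE 0.15). The list median was 0.32, 0.10 and 0.06 in nht1, iec1 and iec5. In iec1 7 of the 10 lay above 0, and the lowest was dak2 (-0.44, SE 0.17, not called). The rise of gpd2 stood beside the value of -0.17 for gpd1 in the same libraries. The call of gut2 ended without either wt library or iec1 replicate 2, that of gpd2 without wt replicate 2 or iec1 replicate 1, and that of zwf1 without any 1 of the wt and iec1 libraries (edgeR adjusted p = 0.0522 to 0.268).

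**Figure D4:**
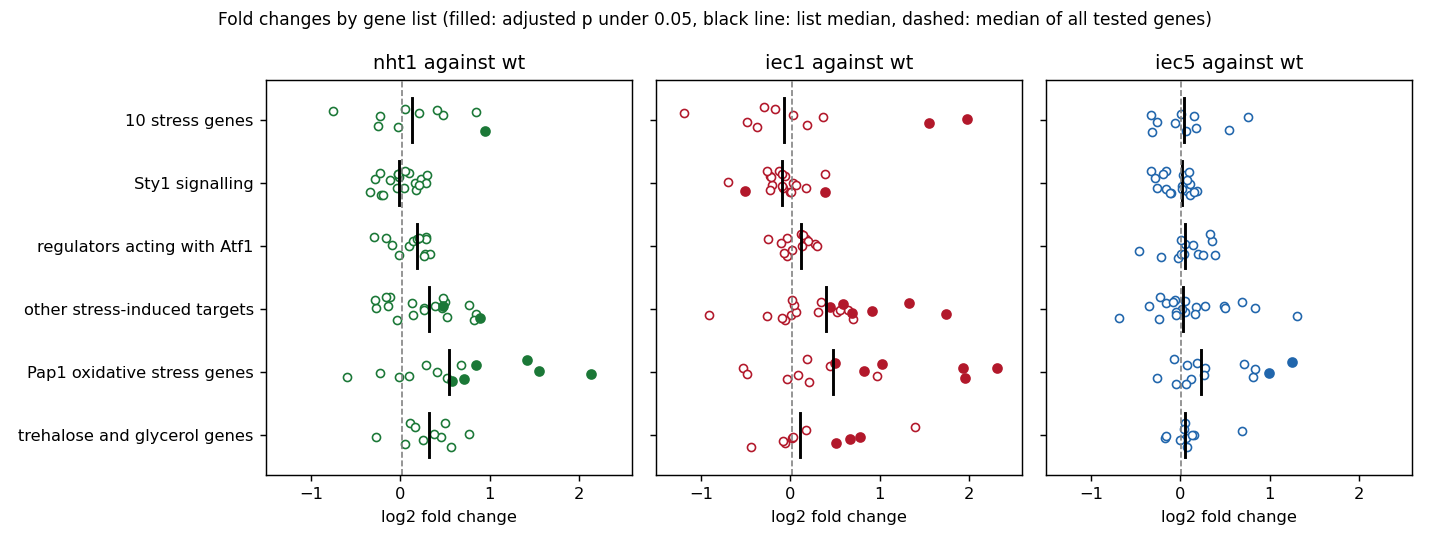
Log2 fold change against wt (x axis) of the tested genes of each list (rows) in the libraries labelled nht1, iec1 and iec5, with filled points for an adjusted p under 0.05, a black line at the list median and a dashed line at the median of all tested genes. In iec1 the median of the 10 stress genes (-0.07) lies below 0 and that of the Pap1 list (0.48) above it.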

How the data were processed

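RNA-seq counts of 8 libraries were used. The submitters' processing notes name HISAT2 2.1.0 and the build ASM294v2, featureCounts 1.6.1 for the counts, and the authors' own DESeq2 1.28.0. No label states the strand setting or the handling of multi-mapped reads. The deposited tables hold raw counts of 5137 coding and 1528 noncoding features. Symbols came from RefSeq's annotation of ASM294v3, which 5115 coding features matched.

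Counts were tested with edgeR 4.0.16 in R 4.3.3 (TMM, default low-count filter, 1 fit of all 8 libraries, group only), and noncoding features with the library sizes of the coding table. Standard errors divide each log2 fold change, unsigned, by the root of its F, and 95% intervals use them with the fit's degrees of freedom. The median tested gene stood at 0.02, 0.02 and 0.01 (log2) in nht1, iec1 and iec5. Log2 CPM used a prior count of 2. Alternatives were DESeq2 1.42.0, RLE normalization, no filter, a replicate block, 2 groups only, a minimum log2 fold change of 1 and 8 fits without 1 library each. The named genes were the 10, the 3 genes that the genotype labels name, and up to 4 called genes of a list and comparison (or the 1 with the smallest p). Overlapping features and the 2 genes most correlated with each member called against wt were named too. The neighbour isp4, and trr1, isp6, trx2 and dak2 of the lists, were named after their values were seen. The members and lists were chosen with earlier results of these data known. The replicate numbers were not taken as pairs: correlations of replicate deviations between groups ran from -0.069 to 0.27. Within a group, the chi-square per degree of freedom between libraries was 7.09 to 9.59.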

Additional observations from a re-analysis of the deposited data

Results flagged for a closer look

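Differences between the libraries labelled iec1 and iec5 passed the test for 2 of the 10 genes, where 4.71% of all tested genes were called. For tps1 the difference was -0.55 (edgeR adjusted p = 0.0235), with both iec1 libraries below both iec5 libraries. For cta3 it was 1.008 (edgeR adjusted p = 0.00380), with both iec1 libraries above both iec5 libraries. The tps1 call ended without iec1 replicate 1, without iec5 replicate 2 and in the fit of iec1 and iec5 alone (edgeR adjusted p = 0.0505 in the last).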

How the results depend on the processing

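With the replicate block the 10 genes had 2 calls in nht1 against wt (hsp9 added at -0.68, adjusted p = 0.0426), 4 in iec1 against wt (tps1 and, at -1.16 with adjusted p = 0.000359, hsp9 added), 1 in iec1 against nht1 (tps1) and 4 in iec1 against iec5 (pyp2 and hsp9 added). Coding calls in iec1 against wt rose with the block too, from 477 of 4652 in the main fit, by less than 1.5 times. In the other comparisons coding calls with the block were 356 (nht1), 37 (iec5), 25 (iec1 against nht1), 53 (iec5 against nht1) and 329 (iec1 against iec5). List calls with it were 1 (Sty1 signalling, nht1), 5 (other targets, nht1), 4 (Pap1, iec5) and 1 (trehalose and glycerol, nht1). DESeq2 gave 1 member and 21 genes in iec1 against nht1 and 1 other target in nht1. Fits of 2 groups gave 24 genes in iec1 against nht1 and 1 member in iec1 against iec5. With a log2 fold change of at least 1, members called were 0 in nht1 and 1 in iec1 against iec5, and coding calls 66 (nht1), 176 (iec1), 12 (iec5), 4 (iec1 against nht1), 11 (iec5 against nht1) and 92 (iec1 against iec5). RLE normalization and no filter moved no count of calls by over 1.5 times.

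Without 1 library each, members called ranged from 0 to 1 (nht1), 2 to 4 (iec1), 1 to 3 (iec1 against iec5) and 1 to 4 (any difference). Coding calls ranged from 52 to 241 (nht1), 235 to 486 (iec1), 2 to 21 (iec5), 0 to 11 (iec1 against nht1), 4 to 30 (iec5 against nht1) and 87 to 210 (iec1 against iec5). Calls were 0 to 1 among noncoding features at the genes (nht1), 0 to 1 in Sty1 signalling (iec1), 0 to 3, 1 to 7 and 0 to 1 among other targets (nht1, iec1, iec5), 3 to 7 and 0 to 2 in the Pap1 list (nht1, iec5), and 0 to 1 and 0 to 3 for trehalose and glycerol (nht1, iec1). Directions of uncalled values turned for atf1 in iec5 (-0.38 to 0.34, -0.00029 with the block and -0.0021 with DESeq2), pcr1 in nht1 (-0.23 to 0.40), iec1 (-0.86 to 0.45, -0.035 with both the block and DESeq2) and iec5 (-0.47 to 0.56), ctt1 in iec5 (-0.087 to 0.24), gpd1 in iec1 (-0.44 to 0.0097), ntp1 in nht1 (-0.080 to 0.042) and iec5 (-0.12 to 0.0061), hsp9 in iec5 (-1.65 to 0.40), SPNCRNA.1071 in iec5 (-1.33 to 0.49), and in iec5 against nht1 pyp2 (-0.34 to 0.13) and tps1 (-0.15 to 0.075). The cause was not tested. The low counts of pcr1 and pyp2 and the spread of hsp9 limit what could be detected, and strand cannot be told apart for any of the 10.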
